A study of Sus scrofa with 33 samples.

Results

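The enzymes described here are those of the tricarboxylic acid cycle, followed in right ventricular muscle of pigs (Sus scrofa) whose pulmonary artery was banded. The 9 genes, taken by name as enzymes of the cycle, were CS, IDH3A, IDH3B, IDH3G, OGDH, DLST, SUCLG1, FH and MDH2. All 9 were measured, by 11 probe sets that carry a single gene symbol, out of 6765 genes and 23999 probe sets tested. Each gene was followed through the brightest of its probe sets (by its mean over all 33 arrays), a rule that uses the level of a probe set and not its changes.

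Each of 11 pigs gave 3 biopsies of the right ventricular free wall, and each biopsy was hybridised to its own Affymetrix porcine array. The first biopsy was taken at baseline, and the next after 120 min of pulmonary banding, which narrows the outflow of the right ventricle until it fails. In the control arm (5 pigs) the last biopsy followed a further 60 min, which the labels give as banding, without a shunt. In the shunt arm (6 pigs) a modified Glenn shunt was in place during those 60 min, which the labels also give as banding. This shunt leads blood of the superior vena cava directly into the pulmonary artery and so unloads the right ventricle. All pigs of both arms were banded. The design holds no unbanded animals with biopsies at these times, and banding, surgery and elapsed time cannot be told apart. Breed, sex and age of the pigs were not used here. The values are log2 RMA values (RMA is an array summary that corrects the background and normalises arrays together), and a change is a difference between log2 values of the same pig.

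The tricarboxylic acid cycle runs in the mitochondrial matrix, where it oxidises acetyl-CoA from fatty acids, pyruvate and ketone bodies to carbon dioxide and passes the electrons to the respiratory chain as NADH and FADH2. Citrate synthase (CS) admits acetyl-CoA. Isocitrate dehydrogenase (the IDH3 subunits) and the 2-oxoglutarate dehydrogenase complex (OGDH and DLST) carry the oxidative decarboxylations, and succinyl-CoA ligase (SUCLG1), fumarase (FH) and malate dehydrogenase (MDH2) return the carbon to oxaloacetate. Heart muscle is rich in mitochondria and makes nearly all of its ATP this way, so these transcripts are abundant there.

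The biopsies showed the labelled tissue: 12 of 14 ventricular cardiomyocyte markers were measured, with mean log2 values from 10.79 for RYR2 to 14.99 for MYH7. The array medians were 6.10 to 6.17, and the number of arrays limits the precision. The GAPDH difference between 3' and 5' probe sets, a sign of RNA quality, averaged between 0.71 and 0.87 in the 6 groups of arm and biopsy. Single arrays ranged from 0.50 to 1.09. From baseline to the last biopsy it changed by -0.32 in shunt pig 1 and by 0.30 in shunt pig 5, the lowest and highest of any pig. Its part in the changes below was not tested. Spiked-in control RNAs (Dap and BioB), averaged by pig, separated the pigs into 3 sets, namely shunt pigs 1 to 4, shunt pigs 5 and 6, and control pigs 1 to 5. All arrays of a pig share a set by this rule. Over the arrays of these sets Dap averaged 3.38 (SD 0.10), 8.34 (0.20) and 7.59 (0.68). BioB averaged 8.33 (SD 0.15), 5.96 (0.14) and 9.35 (0.36). Changes within a pig stay within a set, whereas between the arms the set and the treatment cannot be told apart.

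From baseline to the last biopsy in the shunt arm, 7 of the 9 enzymes fell: CS, IDH3B, IDH3G, DLST, SUCLG1, FH and MDH2. The falls were modest, from -14.5% to -21.0% of the baseline level. IDH3A (log2 change -0.17) and OGDH (-0.12) did not pass the test. In limma, with Benjamini-Hochberg adjustment over all probe sets and a threshold of 0.05, 32.6% of probe sets passed in this comparison and 19.2% passed as lower, with 13.3% higher. Among genes, each by 1 probe set, 23.6% passed as lower. The median change of the 9 was -0.25, against -0.02 over all 6765 genes. In the control arm none of the 9 passed, with changes from -0.11 to -0.01, where 8.79% of probe sets did and 0 members had an unadjusted p under 0.05. The difference between the arms passed for none of the 9 and for 0.00417% of probe sets. The 7 calls leaned on shunt pig 1: without that pig only CS passed (27.3% of probe sets), and without shunt pig 3 the count was 4 (27.2%). With only the 12 baseline and last arrays of the shunt arm in the fit, none of the 9 passed (adjusted p from 0.0524 to 0.549), while 23.7% of probe sets did. Of 54 pairs of gene and shunt pig, 45 were lower at the last biopsy, and of 45 such pairs in the control arm 32 were lower. These pairs are not independent, since the 9 transcripts of a pig moved largely together, and lower pairs were not counted over all genes. The fitted change was negative for 53.0% of all genes with the shunt and for 56.4% without it.

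**Figure D1:**
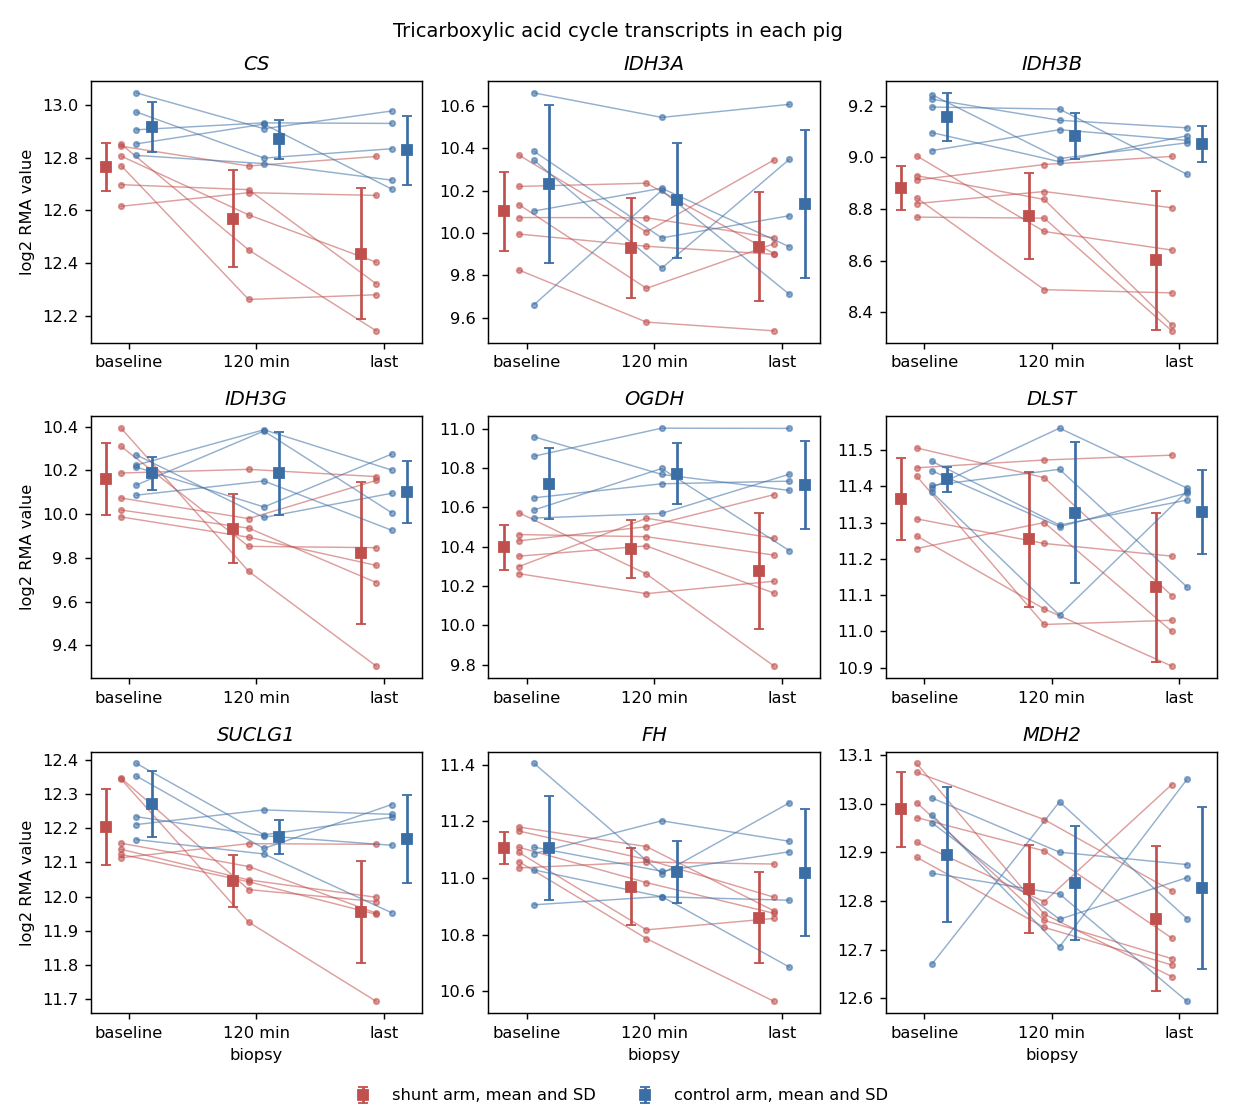
Log2 RMA value (vertical axis) of each of the 9 transcripts at the 3 biopsies (horizontal axis), with a line for each pig, red for the shunt arm (6 pigs) and blue for the control arm (5 pigs), and squares with bars for the mean and SD of a group. Most red lines slope down between baseline and the last biopsy while the groups still overlap, and shunt pig 1 ends lowest for 8 of the 9 transcripts in the shunt arm.

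CS, citrate synthase (Entrez gene 397519), catalyses the entry step of the cycle and is widely used as a marker of mitochondrial content. In the shunt arm its log2 values (lowest, median, highest) were 12.62, 12.79 and 12.85 at baseline, 12.26, 12.63 and 12.77 at 120 min and 12.14, 12.36 and 12.80 at the last biopsy. Control pigs 1 to 5 stood at 12.97, 12.85, 12.81, 13.04 and 12.90 at baseline, at 12.80, 12.93, 12.78, 12.91 and 12.93 at 120 min and at 12.83, 12.68, 12.71, 12.98 and 12.93 at the last biopsy. The shunt values overlapped between the biopsies, because pigs 4 and 5 stayed high. From baseline to last, shunt pigs 1 to 6 changed by -0.71, -0.37, -0.49, 0.04, -0.04 and -0.40, so 5 of 6 were lower. The fitted change in the 6 shunt pigs was -0.33 ± 0.08 (SE). The level changed by -20.3%, with a 95% interval from -28.9% to -10.8% and a limma adjusted p of 0.00226. Here and for all fitted changes within pigs below, the SE and the interval use a spread pooled over all 33 arrays. They are not the spread of the 6 pigs alone. Control pigs 1 to 5 changed by -0.14, -0.17, -0.09, -0.07 and 0.02, a mean of -0.09 ± 0.09 (SE, adjusted p = 0.627). A second CS probe set, which correlated with the first at r = 0.75 over the 33 arrays, gave -0.38 ± 0.12 in the shunt arm (limma adjusted p = 0.0126) and -0.13 ± 0.13 in the control arm (adjusted p = 0.614).

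IDH3A, IDH3B and IDH3G encode the catalytic alpha and the regulatory beta and gamma subunits of the NAD-dependent isocitrate dehydrogenase, a regulated step of the cycle. IDH3A (Entrez gene 100157242) ranged over 9.83, 10.10 and 10.37 (lowest, median, highest) at baseline and 9.54, 9.93 and 10.34 at the last biopsy of the shunt arm. Its changes in shunt pigs 1 to 6 were -0.29, -0.10, -0.18, -0.02, -0.32 and -0.10, lower in 6 of 6 pigs, yet the fitted change of -0.17 ± 0.10 did not pass (limma adjusted p = 0.249). Control pigs differed widely in IDH3A, with 10.66, 10.10, 10.34, 9.66 and 10.38 at baseline and 10.61, 9.94, 10.35, 9.71 and 10.08 at the last biopsy. No other member had so large a spread between control pigs at baseline (SD 0.37, n = 5). A second IDH3A probe set was dimmer and noisier, with a shunt change of -0.11 ± 0.26 (adjusted p = 0.803).

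IDH3B (Entrez gene 733641) in the shunt arm spanned 8.77, 8.88 and 9.01 at baseline, 8.49, 8.80 and 8.97 at 120 min and 8.33, 8.56 and 9.0 at the last biopsy. The 5 control pigs gave 9.24, 9.19, 9.03, 9.10 and 9.23 at baseline and 9.06, 8.93, 9.07, 9.08 and 9.11 at the last biopsy. All 6 shunt pigs were already below all 5 control pigs at baseline, and the share of all genes that separate the arms in this way was not counted. Shunt pigs 1 to 6 changed by -0.58, -0.44, -0.37, -0.02, 0.09 and -0.36, so that pig 5 alone was higher and pig 4 barely moved. The fitted fall was -0.28 ± 0.08 on the log2 scale, or -17.6% (limma adjusted p = 0.00873). Control changes were -0.19, -0.26, 0.04, -0.01 and -0.11, with a fitted -0.11 ± 0.09 (adjusted p = 0.549).

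IDH3G (Entrez gene 100525850) had the largest fitted fall of the 9 and the widest spread between shunt pigs (SD 0.42, n = 6). Its shunt values were 9.99, 10.13 and 10.39 at baseline, 9.74, 9.92 and 10.21 at 120 min and 9.31, 9.81 and 10.17 at the last biopsy. Shunt pigs 1 to 6 changed by -1.09, -0.33, -0.46, -0.02, 0.08 and -0.22. The change of pig 1 was the lowest of any shunt pig in any of the 9 transcripts, and pigs 4 and 5 barely moved. The fit gave -0.34 ± 0.11, or -21.0%, with a limma adjusted p of 0.0149, and without pig 1 the estimate was -0.19 (adjusted p = 0.131). In control pigs 1 to 5 the values were 10.27, 10.09, 10.13, 10.22 and 10.22 at baseline and 10.10, 9.93, 10.01, 10.27 and 10.20 at the last biopsy, a fitted change of -0.08 ± 0.12 (adjusted p = 0.750).

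OGDH and DLST encode the decarboxylating E1 and the succinyl-transferring E2 components of the 2-oxoglutarate dehydrogenase complex, of which DLST passed the test and OGDH did not. OGDH (Entrez gene 100515636) in the shunt arm spanned 10.26, 10.39 and 10.57 at baseline and 9.79, 10.29 and 10.66 at the last biopsy. Its changes in shunt pigs 1 to 6 were -0.78, -0.19, -0.04, 0.14, 0.23 and -0.10, lower in 4 of 6. Pig 1 stood apart at the low end, and the fitted -0.12 ± 0.10 did not pass (limma adjusted p = 0.379). Without pig 1 the OGDH estimate was 0.01 (adjusted p = 0.951). Control pigs changed by -0.27, 0.08, -0.21, 0.22 and 0.14, in both directions, around a fitted -0.01 ± 0.11. Whether OGDH and DLST differed in their response was not tested.

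DLST (Entrez gene 397690) spanned 11.23, 11.37 and 11.51 at baseline, 11.02, 11.27 and 11.47 at 120 min and 10.90, 11.06 and 11.49 at the last biopsy of the shunt arm. Shunt pigs 1 to 6 changed by -0.36, -0.23, -0.40, 0.03, -0.41 and -0.10, and pig 4 was the exception to a lower last value. The fitted fall was -0.24 ± 0.08, or -15.5% (limma adjusted p = 0.0194), and it no longer passed without pig 1, pig 3 or pig 5 (adjusted p from 0.0677 to 0.0729). Control pigs lay close together at baseline, at 11.44, 11.40, 11.38, 11.40 and 11.47. Their last values were 11.38, 11.12, 11.39, 11.40 and 11.36, of which pig 2 was clearly the lowest, and the fitted change was -0.09 ± 0.09 (adjusted p = 0.625).

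SUCLG1 (Entrez gene 399539) encodes the alpha subunit shared by the GTP-forming and ATP-forming succinyl-CoA ligases, the substrate-level phosphorylation step of the cycle. Shunt values were 12.11, 12.15 and 12.35 at baseline, 11.93, 12.05 and 12.15 at 120 min and 11.69, 11.97 and 12.15 at the last biopsy. Control pigs 1 to 5 had 12.35, 12.17, 12.39, 12.21 and 12.23 at baseline, 12.14, 12.12, 12.18, 12.25 and 12.18 at 120 min and 12.27, 11.95, 12.23, 12.24 and 12.15 at the last biopsy. The last values of 5 shunt pigs lay below every shunt baseline value, and pig 4 was the one that did not. Shunt pigs 1 to 6 changed by -0.65, -0.20, -0.36, 0.04, -0.14 and -0.18, and the fit gave -0.25 ± 0.07, or -15.8% (limma adjusted p = 0.00691). Control pigs changed by -0.08, -0.21, -0.16, 0.03 and -0.08, a fitted -0.10 ± 0.08 (adjusted p = 0.492), which was the smallest adjusted p of the 9 in that arm.

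FH, fumarase (Entrez gene 100627128), hydrates fumarate to malate and also has a cytosolic form made from the same gene. It spanned 11.04, 11.10 and 11.18 at baseline, 10.79, 11.02 and 11.11 at 120 min and 10.56, 10.88 and 11.05 at the last biopsy of the shunt arm. Shunt pigs 1 to 6 changed by -0.49, -0.30, -0.23, 0.01, -0.23 and -0.23, an even fall outside pigs 1 and 4. The fitted change was -0.25 ± 0.07, or -15.7% (limma adjusted p = 0.00711). Control pigs stood at 11.11, 10.91, 11.40, 11.09 and 11.03 at baseline and 11.09, 10.69, 11.27, 11.13 and 10.92 at the last biopsy. They were lower in 4 of 5, with a fitted -0.09 ± 0.08 (adjusted p = 0.567).

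MDH2, the mitochondrial malate dehydrogenase (Entrez gene 397039), closes the cycle by regenerating oxaloacetate and takes part in the malate-aspartate shuttle. Its shunt values were 12.89, 12.99 and 13.08 at baseline, 12.75, 12.79 and 12.97 at 120 min and 12.64, 12.70 and 13.04 at the last biopsy. Shunt pigs 1 to 6 changed by -0.44, -0.25, -0.32, 0.12, -0.24 and -0.22. Pig 4 alone was higher, after a change of 0.24 in the last 60 min. The fitted fall of -0.23 ± 0.08, or -14.5%, was the smallest of the 7 calls (limma adjusted p = 0.0287). It no longer passed when shunt pig 1, 2, 3, 5 or 6 was left out, with adjusted p from 0.0627 to 0.125. Control pigs 1 to 5 changed by -0.14, -0.26, 0.07, 0.09 and -0.11, a fitted -0.07 ± 0.09 (adjusted p = 0.717).

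Seen by animal, shunt pig 1 had all 9 transcripts lower at the last biopsy, with a median change of -0.58. Pigs 2, 3 and 6 also had 9 of 9 lower, with medians of -0.25, -0.36 and -0.22, and pig 5 had 6 of 9 lower with a median of -0.14. Shunt pig 4 had 3 of 9 lower and a median of 0.03. In the control arm the medians of pigs 1 to 5 were -0.14, -0.21, -0.09, 0.04 and -0.11, with 9, 8, 5, 3 and 7 of 9 lower. The pigs of both arms therefore overlapped: shunt pig 4 lay among the controls, and control pig 2 was about as low as shunt pig 6. The counts of lower transcripts per pig are descriptions, since the transcripts of a pig moved largely together. Fitted within shunt pigs 1 to 4 alone, 1 member (IDH3G) passed, with 20% of probe sets, and within shunt pigs 5 and 6 alone none did, with 4.88%.

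**Figure D2:**
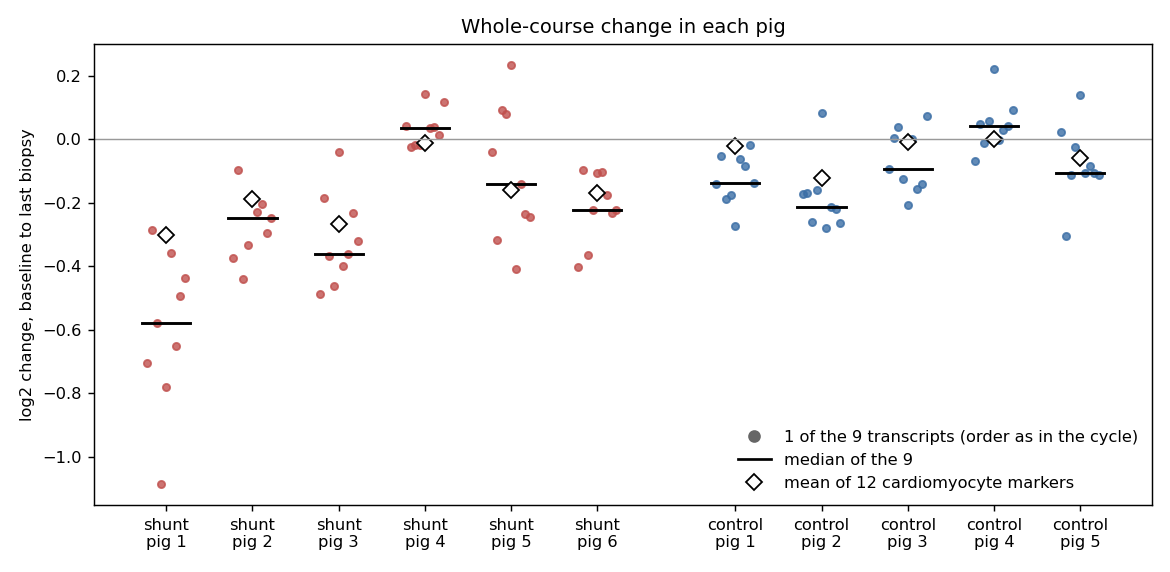
Log2 change from baseline to the last biopsy (vertical axis) in each pig (horizontal axis), with a point for each of the 9 transcripts, a bar for their median and an open diamond for the mean change of 12 cardiomyocyte markers. The medians run from -0.58 in shunt pig 1 to 0.03 in shunt pig 4, and from -0.21 to 0.04 in the control pigs.

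Banding for 120 min, taken over all 11 pigs, moved none of the 9 past the threshold, while 29% of probe sets passed in limma, 11.6% higher and 17.4% lower. The 9 changes ran from -0.13 for IDH3A to 0.02 for OGDH, with a median of -0.12 against -0.02 over all genes. SUCLG1 came closest, at -0.13 ± 0.05 (SE, n = 11 pigs, limma adjusted p = 0.0607), and was lower in 9 of 11 pigs. FH changed by -0.11 ± 0.05 (adjusted p = 0.0983) and CS by -0.13 ± 0.06 (adjusted p = 0.105), each lower in 8 of 11 pigs. Unadjusted p-values under 0.05 were held by 3 members and by 9501 probe sets. Without control pig 4, IDH3A, SUCLG1 and MDH2 passed (limma adjusted p = 0.0334, 0.0452 and 0.0312), where 30.6% of probe sets did. Without shunt pig 4, SUCLG1 passed (0.0386), where 26.3% of probe sets did.

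The 9 values at 120 min were already spread among the shunt pigs, all of which were still unshunted at that time. Shunt pigs 1, 3 and 6 had 9 of 9 lower, with medians of -0.31, -0.36 and -0.09, and pig 4 had 2 of 9 lower with a median of 0.02. In shunt pig 3, CS changed by -0.51 and DLST by -0.41 in these 120 min. Of the later shunt arm's 54 pairs of gene and pig 42 were lower at 120 min, and of the control arm's 45 pairs 27 were lower. Pairs of the same pig are not independent here either, and lower pairs were not counted over all genes. Of all genes, 53.7% had a negative fitted change at 120 min among the later shunt pigs and 57.3% among the controls. Taken by arm, none of the 9 passed among the shunt pigs, where 24.1% of probe sets did and 4 members had an unadjusted p under 0.05. Nor did any of the 9 among the control pigs, where 6.73% of probe sets passed and 0 members had an unadjusted p under 0.05. The difference between the arms at 120 min passed for none of the 9 and for 0% of probe sets (0 members and 1655 probe sets at an unadjusted p under 0.05).

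Between 120 min and the last biopsy none of the 9 passed in either arm, and neither did any probe set (0%). In the shunt arm the changes ran from -0.17 for IDH3B to 0.01 for IDH3A, with a median of -0.11. IDH3B was the member with an unadjusted p under 0.05 (-0.17 ± 0.08, limma adjusted p = 0.538), beside 2146 probe sets. SUCLG1 was lower in 6 of 6 shunt pigs over this hour, by -0.09 ± 0.07. In the control arm the changes lay between -0.09 for IDH3G and 0.00 for DLST, and 0 members and 737 probe sets had an unadjusted p under 0.05. For the difference between the arms in this period the values were 0 of 9, 0% of probe sets passed, and 737 probe sets had an unadjusted p under 0.05.

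Over the whole course the arms were compared as an interaction, shunt minus control. All 9 differences were negative, as were those of 52.7% of all genes. The 9 signs are not independent, since the transcripts of a pig moved largely together. None of the 9 passed (smallest limma adjusted p = 0.420), where 0.00417% of probe sets did, and 0 members and 2922 probe sets had an unadjusted p under 0.05. CS differed by -0.24 ± 0.12 (95% interval -0.48 to 0.00) and IDH3G by -0.26 ± 0.16 (-0.58 to 0.07). FH differed by -0.16 ± 0.10 (-0.37 to 0.05) and IDH3A by -0.07 ± 0.15 (-0.39 to 0.25). The changes of the arms overlapped for each of the 9. These intervals include both equal changes and a difference as large as the shunt change itself. The comparisons of the whole course and of 120 min share the baseline arrays and are not independent of each other.

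**Figure D3:**
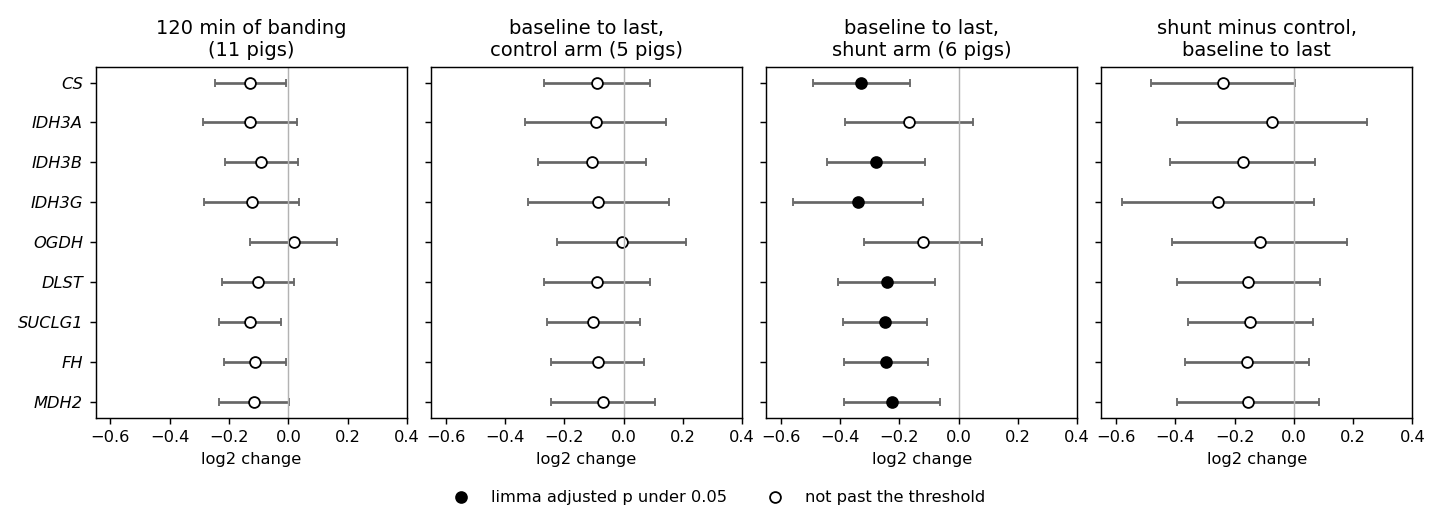
Fitted log2 change (horizontal axis) of each of the 9 transcripts (vertical axis) in 4 comparisons, with 95% confidence intervals as bars and filled points for a limma adjusted p under 0.05. Filled points appear in the panel of the shunt arm from baseline to the last biopsy and in no other, and the intervals of the difference between the arms all include 0.

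The arms were also set against each other at baseline, before any banding. None of the 9 passed, where 0.0208% of probe sets did. OGDH was lower in the later shunt arm by -0.32 ± 0.09 (limma adjusted p = 0.228) and IDH3B by -0.28 ± 0.07 (adjusted p = 0.194), the pair of members with an unadjusted p under 0.05 beside 2820 probe sets. The OGDH values of the control pigs were 10.96, 10.65, 10.59, 10.55 and 10.86, and the shunt pigs spanned 10.26, 10.39 and 10.57. The highest shunt pig thus lay above control pig 4 in OGDH, whereas for IDH3B the arms did not overlap. How many of all genes had no overlap between the arms at baseline was not counted. These baseline differences were of the size of the changes described above, and arm and array set cannot be told apart in them.

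Within pigs the 9 transcripts moved largely together. After each pig's own mean was subtracted, SUCLG1 followed the mean of the other 8 most closely, with r = 0.96 over the 33 arrays, then CS (0.91) and FH (0.90). IDH3B (0.82), MDH2 (0.80), DLST (0.78) and IDH3G (0.75) lay between, and OGDH (0.48) and IDH3A (0.46) followed it least. The 36 pairs of members had a median r of 0.69, from -0.15 for IDH3A with OGDH to 0.91 for CS with IDH3B. Over the 15 control arrays alone IDH3G (0.03) and OGDH (-0.22) had r values near or below 0. These correlations are descriptions, since arrays of the same pig share the animal and all arrays share the normalisation.

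By the same measure the 6 genes outside the 9 that were most like the mean of the 9 were BCKDK (r = 0.97), SDHA (0.96), ADSL (0.96), CHCHD10 (0.95), MCRIP2 (0.95) and GOT2 (0.95). BCKDK is the kinase that restrains branched-chain keto acid oxidation, and ADSL is the adenylosuccinate lyase of purine synthesis. CHCHD10 is a mitochondrial protein of the intermembrane space, and GOT2 is the mitochondrial aspartate aminotransferase. Their fitted changes in the shunt arm over the whole course were all negative, such as -0.46 for BCKDK, -0.45 for ADSL and -0.57 for MCRIP2. That direction follows from the way they were chosen, on the same arrays in which the mean of the 9 is lower, and is given as a description.

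Another 9 genes of the cycle were measured. In the shunt arm over the whole course 5 of these fell and none rose, where 23.6% of all genes fell and 16.7% rose. SDHA, the flavoprotein of succinate dehydrogenase, fell by 0.35 on the log2 scale (± 0.09, limma adjusted p = 0.00388), SDHB, its iron-sulphur subunit, by 0.29 (± 0.08, 0.00646), and SDHD, a membrane anchor, by 0.37 (± 0.12, 0.0206). The NADP-dependent mitochondrial IDH2 (-0.20 ± 0.07, 0.0344) and the cytosolic MDH1 (-0.20 ± 0.07, 0.0408) fell too. SDHC (-0.23), SUCLG2 (-0.22), SUCLA2 (-0.19) and DLD (-0.28) did not pass. The median of the list was -0.23, close to that of the 9 members. At 120 min SDHD (-0.25 ± 0.09, adjusted p = 0.0347) was the one call, where 20.8% of all genes fell and 13.1% rose. In the control arm over the whole course there was no call, where 5.59% of genes fell and 4.39% rose.

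**Figure D4:**
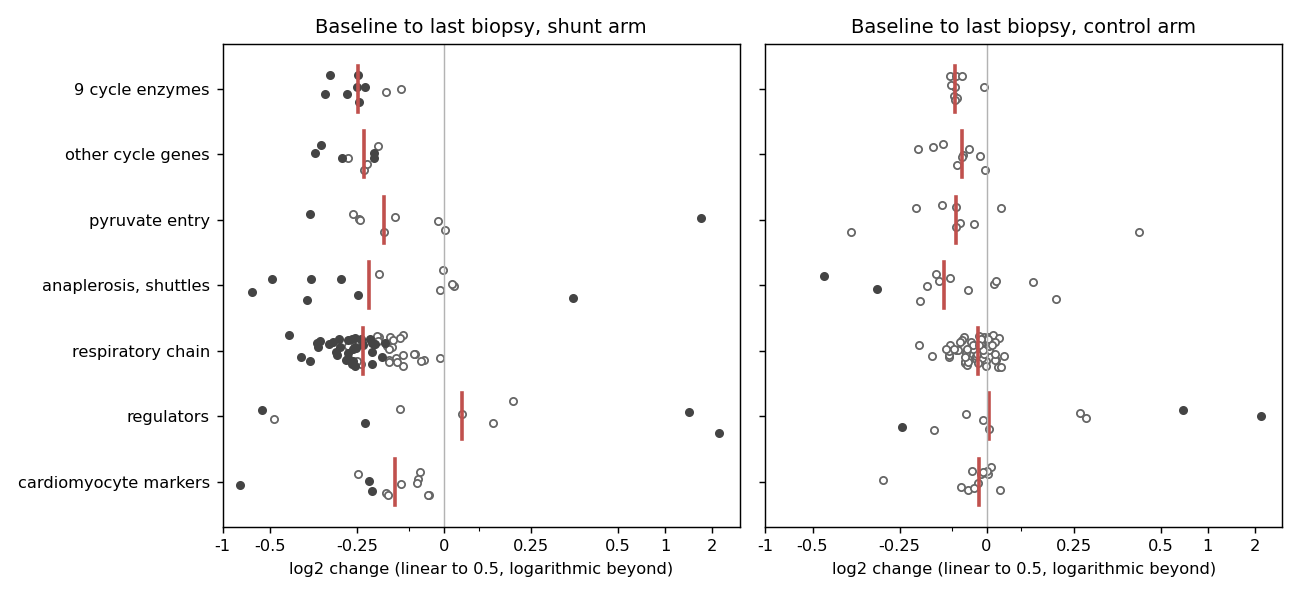
Log2 change from baseline to the last biopsy (horizontal axis, linear between -0.5 and 0.5 and logarithmic beyond) of each measured gene of 7 lists (vertical axis), in the shunt arm on the left and the control arm on the right, with filled points for a limma adjusted p under 0.05 and a red bar for each list's median. In the shunt arm the 9 members (median -0.25), the other cycle genes (-0.23) and the respiratory chain (-0.23) lie left of 0, and in the control arm their medians are -0.09, -0.07 and -0.03.

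Of the genes that bring pyruvate into the cycle, 9 of 14 were measured. In the shunt arm over the whole course 1 of the 9 rose and 1 fell (11.1% each), below the 16.7% and 23.6% of all genes. At 120 min 1 rose and none fell, where 13.1% of all genes rose and 20.8% fell. PDK4, the kinase that switches off pyruvate dehydrogenase, rose by 1.41 ± 0.25 at 120 min over all pigs (limma adjusted p = 0.000116). By arm this was 1.94 ± 0.33 among the later shunt pigs (0.000142) and 0.77 among the controls, where it did not pass. Over the whole course PDK4 rose by 1.70 ± 0.33 in the shunt arm (0.000340) and changed by 0.44 in the control arm, where it did not pass. The whole-course difference between the arms, 1.26, did not pass either. DLAT, the acetyl-transferring component of pyruvate dehydrogenase, fell by 0.38 (± 0.13, adjusted p = 0.0290) in the shunt arm over the whole course. The others were not called in these comparisons. The pyruvate carrier subunits MPC1 (-0.24 ± 0.09, adjusted p = 0.0526) and MPC2 (-0.17 ± 0.08) and the dehydrogenase subunits PDHA1 (-0.14 ± 0.09) and PDHB (-0.26 ± 0.11, adjusted p = 0.0701) did not pass. No gene of the list passed over the whole course of the control arm, where 5.59% of all genes fell and 4.39% rose.

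Among 12 measured genes of anaplerosis and metabolite shuttles, 6 fell and 1 rose in the shunt arm over the whole course, beside 23.6% and 16.7% of all genes. IDH1, the cytosolic NADP-dependent isocitrate dehydrogenase, fell by 0.65 (± 0.10, limma adjusted p = 3.5e-05) there and by 0.47 (± 0.11, 0.0111) in the control arm. SLC25A12, an aspartate-glutamate carrier of the malate-aspartate shuttle, fell by 0.49 (± 0.10, 0.000467), and GOT1, the cytosolic aspartate aminotransferase of the same shuttle, by 0.38 (± 0.09, 0.00112). ACO1, the cytosolic aconitase and iron sensor, rose by 0.37 (± 0.08, 0.000439). At 120 min 5 of the 12 fell and 1 rose, beside 20.8% and 13.1% of all genes. In the control arm over the whole course IDH1 and the citrate carrier SLC25A1 (-0.32 ± 0.08, 0.0134) fell, where 5.59% of all genes did.

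The respiratory chain, which takes up the electrons of the cycle, was followed in 59 genes of the complexes and their assembly factors. In the shunt arm over the whole course 34 of the 59 fell (57.6%, against 23.6% of all genes) and none rose, with a median of -0.23. The smallest p-values belonged to ATP5D of the ATP synthase (-0.41 ± 0.07, limma adjusted p = 0.000128) and to the complex I subunits NDUFB10 (-0.38 ± 0.08, 0.000665), NDUFC2 (-0.30 ± 0.06, 0.000835) and NDUFS3 (-0.44 ± 0.10, 0.000839). At 120 min 13 of the 59 fell, a share of 22% that was near the 20.8% of all genes, NDUFS3 (-0.29 ± 0.07, 0.00342) with the smallest p. The control arm had 0 of the 59 passing over the whole course, where 5.59% of all genes fell and 4.39% rose. The difference between the arms over the whole course passed for 0 of the 59 and for 0.00417% of probe sets. The median r of the 59 with the mean of the 9 cycle transcripts was 0.81, and all 59 were above 0. The same median was 0.60 for the other cycle genes and 0.10 over all 6765 genes.

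Of 19 listed regulators of mitochondrial genes 9 were measured. Over the whole course 2 of the 9 rose and 2 fell in the shunt arm (22.2% each), near the 16.7% and 23.6% of all genes. In the control arm 2 rose and 1 fell, where 4.39% and 5.59% of all genes did. PPRC1, a coactivator of the PGC-1 family, rose by 1.42 ± 0.15 in the shunt arm over the whole course (limma adjusted p = 3.05e-07) and by 0.70 ± 0.17 in the control arm (0.0103). The growth regulator MYC rose by 2.22 ± 0.28 and 2.20 ± 0.31 (2.2e-06 and 9.02e-05). SIRT3, the main mitochondrial deacetylase, fell by 0.56 (± 0.10, 0.000137) in the shunt arm, and the transcription factor YY1 fell in both (-0.23 ± 0.06, 0.00667, and -0.24 ± 0.07, 0.0251). PPARGC1A, the coactivator most associated with mitochondrial biogenesis, changed by -0.49 ± 0.25 (adjusted p = 0.147) among shunt pigs and by 0.27 ± 0.27 among controls. TFAM, which maintains mitochondrial DNA, changed by 0.05 ± 0.09 and -0.06 ± 0.10.

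Markers of cell types moved in the same biopsies. In bulk tissue, fewer cells of a type and less RNA per cell cannot be told apart. The mean of the 12 measured cardiomyocyte markers ranged over 13.95 to 14.05 at baseline and 13.71 to 13.98 at the last biopsy of the shunt arm, and over 13.89 to 14.05 and 13.80 to 13.99 in the control arm. Its change over the whole course was -0.18 ± 0.10 in the shunt arm (SD, lower in 6 of 6 pigs) and -0.04 ± 0.05 in the control arm (lower in 4 of 5). Of the 12 markers 3 fell in the shunt arm (25%, near the 23.6% of all genes), namely PLN (-0.77 ± 0.13, limma adjusted p = 4.96e-05), CKM (-0.22 ± 0.06, 0.00895) and TNNT2 (-0.21 ± 0.06, 0.0128), while MYH7 (-0.04 ± 0.05) and MYL2 (-0.04 ± 0.05) did not pass. All 12 markers except RYR2 had higher mean values than any of the 9 transcripts. MYH7 averaged 14.99, where the highest value in the data was 15.2. Whether changes are compressed at such levels was not tested. Relative to the cardiomyocyte list, the mean of the 9 cycle transcripts changed by -0.06 ± 0.13 in the shunt arm (SD, n = 6 pigs, lower in 4) and -0.04 ± 0.06 in the control arm (n = 5, lower in 4). These values leaned on PLN. With PLN left out, a choice made after its value was seen, the 11 remaining markers changed by -0.13 ± 0.09 in the shunt arm, and the 9 transcripts relative to them by -0.12 ± 0.13 (SD, lower in 4 of 6) and by -0.06 ± 0.06 in controls (lower in 4 of 5). The part of the cardiomyocyte markers in the lower cycle transcripts was not tested.

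The neutrophil and monocyte list (7 of 9 markers measured) averaged 5.16 to 5.59 at baseline and 5.63 to 7.14 at the last biopsy of the shunt arm, and 5.27 to 5.48 and 5.54 to 5.90 in the control arm. It was higher in every pig over the whole course, by 0.98 ± 0.51 (SD) with the shunt and 0.32 ± 0.17 without it. Of its 7 markers, 5 rose in the shunt pigs, where 16.7% of all genes rose, and 1 in the controls, where 4.39% did. The smooth muscle and pericyte list (6 of 7 measured) was higher by 0.57 ± 0.34 (shunt arm) and 0.19 ± 0.11 (control arm). At 120 min it stood at changes of 0.41 ± 0.25 and 0.15 ± 0.27. The macrophage list (3 of 6 measured) was higher by 0.46 ± 0.25 and 0.38 ± 0.34 over the whole course, and by 0.47 ± 0.34 and 0.26 ± 0.34 at 120 min. The erythrocyte list (3 of 4 measured) had mean whole-course changes of opposite sign in the arms. They were 0.40 ± 0.53 in the shunt arm (lower in 1 of 6 pigs) and -0.70 ± 0.60 in the control arm (lower in 5 of 5). At 120 min, before any shunt, this list had changed by -0.06 ± 0.32 and -0.81 ± 0.80. It averaged 7.26 to 8.33 at baseline and 7.58 to 9.47 at the last biopsy of the shunt arm, against 7.47 to 8.93 and 7.30 to 8.0 among controls, and 0 of its 3 markers passed in either arm or in the difference between them. The lymphocyte list (5 of 7 measured) changed over the whole course by 0.00 ± 0.15 in the shunt arm and by -0.20 ± 0.11 in the control arm (lower in 5 of 5). The means of the endothelial, fibroblast, mesothelial, adipocyte and atrial lists changed by less than their SD between pigs in both arms. Single markers within them were called. In the shunt arm 1 of 8 endothelial and 1 of 5 fibroblast markers rose, where 16.7% of all genes did. There 1 endothelial, 1 fibroblast, 1 of 3 adipocyte and 1 of 3 atrial markers fell, beside 23.6% of all genes. In the control arm 1 endothelial and 1 atrial marker fell, beside 5.59%, and none rose. The part of these lists in the lower cycle transcripts was not tested.

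**Figure D5:**
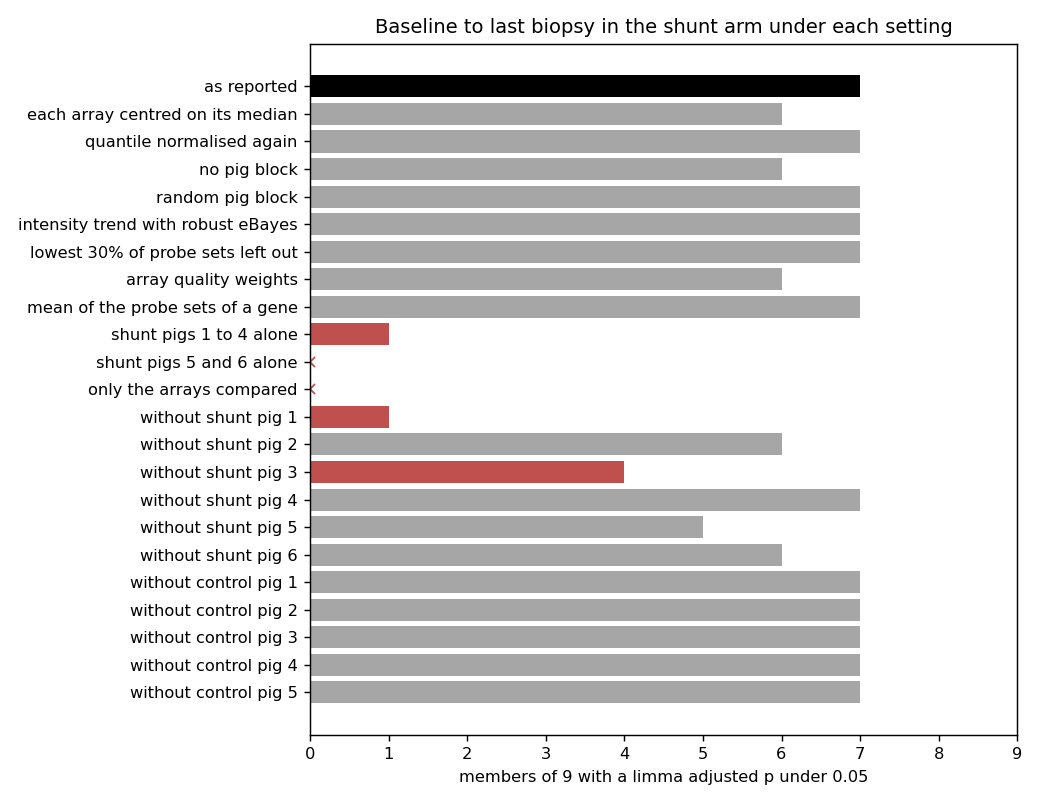
Number of the 9 transcripts with a limma adjusted p under 0.05 from baseline to the last biopsy in the shunt arm (horizontal axis) under each way of fitting the data (vertical axis), with red for counts that differ from 7 by more than 1.5 times and a cross for 0. Without shunt pig 1 the count was 1 (27.3% of probe sets passed), and with only the arrays compared it was 0 (23.7%). Leaving out a control pig did not alter it (31.5% to 33.1%).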

How the data were processed

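RNA from right ventricular biopsies of 11 pigs was measured on 33 Affymetrix arrays, 1 per biopsy. Per the submitters' processing notes the authors summarised the probe sets with RMA, and the deposited values are log2 values between 2.21 and 15.2. Which program ran RMA, in which version and over which arrays jointly, is not given in the sources used here. RMA scales arrays to a common distribution, so changes shared by most probe sets cannot be seen.

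The values were used as deposited. Of 24123 probe sets, 124 controls were left out. The platform annotation names 1 gene symbol for 10069 probe sets, several for 198 and none for 13732. All 9 members matched a RefSeq entry. No genome build was used and no sequences are printed.

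Changes were fitted in R 4.3.3 with limma 3.58.1 (lmFit, eBayes) on all 33 arrays, with a coefficient for each pig and for each later biopsy within each arm, leaving 18 residual degrees of freedom. The arms at baseline were compared on the 11 baseline arrays. Tests are two-sided with Benjamini-Hochberg adjustment over 23999 probe sets and a threshold of 0.05. Biopsies are paired by the pig named in the labels. In deviations from the group means the median correlation was 0.395 within a pig and -0.0524 between pigs, and 28 of 33 arrays correlated best with their own pig. The fit was tested on simulated data.

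The members, lists and tests were chosen with earlier results of these data known. Named were all 9 members in each comparison, every called gene of the other cycle genes and pyruvate entry, up to 4 called genes with the smallest p of the other lists, and the 6 genes most like the mean of the 9. Genes named besides these were chosen after their values were seen. Alternatives were centring, quantile normalisation, no pig block, a random pig block (statmod 1.5.0), an intensity trend with robust eBayes, leaving out the lowest 30% of probe sets, array weights, the mean of a gene's probe sets, array sets fitted apart, only the arrays compared, and each pig left out. The cardiomyocyte list without PLN was added after seeing the data.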

Additional observations from a re-analysis of the deposited data

Results flagged for a closer look

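In 108 groups of levels or changes of the 9 transcripts (each of 5 or 6 pigs), the lowest and highest pig were compared with the others by Dixon's criterion, which chance alone meets in about 1 in 20 groups. It was met in 2. DLST in the control arm at the last biopsy was 11.12 in pig 2, below the other 4 control pigs, of which the nearest stood at 11.36. The change of MDH2 from 120 min to the last biopsy was 0.24 in shunt pig 4, where the nearest shunt pig had -0.08 and the other 5 were all lower than at 120 min.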

How the results depend on the processing

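In the shunt arm from baseline to the last biopsy, the count of 7 falls came with 32.6% of probe sets called. It was 6 with each array centred on its median (32.4% called) and 6 with array weights (33.3%). It stayed at 7 with quantile normalisation (32.4%), a random pig block (31%) or an intensity trend with robust eBayes (32.2%). The count was also 7 with the lowest 30% of probe sets left out (43.1%) or the mean of a gene's probe sets (33.7%). With no replicate block, that is, without the pairing of biopsies by pig, it was 6 (24%). It was 1 in shunt pigs 1 to 4 alone (20%), 0 in shunt pigs 5 and 6 alone (4.88%) and 0 with only the arrays compared (23.7%). These last 3 fits use fewer arrays and take the spread from those arrays alone. With only the arrays compared, the fitted changes were the same as in the main fit (CS -0.33). The limma adjusted p of the 7 then ran from 0.0524 for FH to 0.120 for IDH3G, while that of IDH3A went from 0.249 to 0.127. Leaving out each pig gave counts of 1 to 7, while 27.1% to 33.5% of probe sets passed. The count was 1 without shunt pig 1 (27.3%) and 4 without shunt pig 3 (27.2%). The count of 0 at 120 min (29% of probe sets) became 2 with quantile normalisation (DLST and FH, 28.3%). It became 1 each with the random block (28%), the intensity trend (28.8%) and the low filter (38.2%), SUCLG1 each time. Leaving out each pig gave 0 to 3 there (24.3% to 30.6% of probe sets), the cause of which was not tested. For 120 min in the shunt arm alone the count became 1 with quantile normalisation (23.8%) and 1 with array weights (30.3%). It was 0 to 1 when each pig was left out (17.6% to 24.6%). The other 8 comparisons had 0 members called in every fit run, where 0% to 14.3% of probe sets passed. Of 2061 recomputed changes of single members 0 called ones reversed, and 79 uncalled ones changed sign. The arms differed in 1 probe set over the whole course, and in 0 to 274 when each pig was left out, none of them a member. Limits: the fit pools the spread of 33 arrays, and the intervals of the differences between the arms are wide. No unbanded pigs were followed, array set and arm are confounded, and no protein or enzyme activity was measured.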

Other observations

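Some transcripts ran against the cycle enzymes. Of all 6765 genes, the 6 with the most negative correlation with the mean of the 9, over the 33 arrays after each pig's own mean was subtracted, were RPL22L1 (r = -0.94), NEK6 (-0.94), PRSS23 (-0.93), DEK (-0.93), CKAP4 (-0.92) and SEC61B (-0.92). CKAP4 and SEC61B are proteins of the endoplasmic reticulum, the latter a subunit of its protein channel, PRSS23 is a secreted serine protease, NEK6 a mitotic kinase and DEK a chromatin protein. All 6 had positive fitted log2 changes in the shunt arm from baseline to the last biopsy, of 1.16 for CKAP4, 1.02 for PRSS23, 0.58 for SEC61B, 0.57 for RPL22L1, 0.45 for NEK6 and 0.35 for DEK. Their control arm changes were smaller, from 0.11 for DEK to 0.34 for CKAP4, and the difference between the arms in these genes is not given here. Their direction in the shunt arm follows from choosing them on the same arrays, and they are given as a description, with no test.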
